A study of Mus musculus with 12 samples.

Results

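Lipid droplets are the organelles in which cells keep triacylglycerol, and a white adipocyte is filled almost wholly by a single large one. A phospholipid monolayer surrounds the stored fat, and proteins of the perilipin family coat it and control how lipases reach the fat, while other proteins form new droplets at the endoplasmic reticulum, fuse them or hold back the lipases. The 9 genes described here encode the 5 perilipins (Plin1, Plin2, Plin3, Plin4 and Plin5), the fusion protein Cidec, the lipase inhibitor Hilpda and the droplet-forming proteins Fitm2 and Bscl2. They were chosen by symbol, for their known role, from 22947 genes measured in mouse epididymal white adipose tissue (eWAT), and all 9 passed the filter that left 12775 genes for testing.

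Male C57BL/6J mice were placed at 5 weeks of age on 1 of 4 diets for 16 weeks and were 21 weeks old at the end. The ND group received the normal diet, the HFD group a high-fat diet, the CLE group the high-fat diet with 1.5% (w/w) of an ethanol extract of chrysanthemum leaves, and the LU group the high-fat diet with 0.003% (w/w) of luteolin, a flavonoid of that plant. The HFD group is therefore the control of both supplements, and the comparisons of CLE and LU with HFD share its 3 mice. RNA of the whole tissue was sequenced from 3 mice a group, 12 libraries in all, and a library is named here by its group and mouse number. The authors describe these samples as representative of larger groups, so their spread need not be that of the whole groups. All mice were fasted before the end. The obesity is of dietary origin, with no altered gene.

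Levels are FPKM, fragments counted on a transcript relative to its length and to all fragments of the library, so that levels of different genes can be set side by side. A gene was called changed when limma, fitted to log2(FPKM + 1) of all tested genes, gave a Benjamini-Hochberg adjusted p under 0.05 and the change was over 1.5-fold. The adjusted p of every comparison below is from this limma fit, while "-fold" is the ratio of the group means of FPKM. With 3 mice a group the smallest two-sided p of an exact permutation test is 0.1, so single genes cannot pass 0.05 by that test.

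Library totals, summed over genes, lay between 435095 and 455040 FPKM, and replicate mice correlated at 0.978 to 0.991 (Pearson's r over genes). The depth in reads is unknown. The labels of 4 libraries (ND 3, ND 4, CLE 4 and LU 2) carry a letter R, and their column headers carry a further number that no other library has. Neither mark is explained. No HFD library carries them, so they are partly confounded with diet. Without these 4 libraries, which leaves ND with 1 mouse assumed to vary like the other groups, the number of the 9 genes called stayed at 7 for HFD against ND, 6 for CLE against HFD and 3 for LU against HFD. All 10 adipocyte markers, among them Adipoq and Fabp4, were found and none was at 0 in any library. Summed skeletal muscle markers were highest in HFD 12 (13.8 FPKM) and CLE 11 (20.9 FPKM) and at most 7.03 FPKM in the other libraries, and the counts of called genes without both were also 7, 6 and 3. In CLE against HFD this count hides an exchange, since without both libraries Plin1 was no longer called and Plin3 was.

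In the comparisons below, 5 of the 9 genes changed in 1 direction and Plin2 and Plin3 in the other, and sequences before start sites are shown from both sets. Whether these sequences bear on the direction was not tested. They are the 250 bases upstream of the RefSeq start (GRCm38.p6), 5′ to 3′ on the strand of the gene, for Plin2 and for the 3 of those 5 genes with the highest levels. All 4 genes lie on the minus strand, with the windows at chr7:79732777-79733026 for Plin1, chr4:86670060-86670309 for Plin2, chr17:56109783-56110032 for Plin4 and chr6:113435761-113436010 for the upstream of the 2 Cidec starts. Capitals mark TTGCNNAA (the C/EBP site, in Plin1) and AGGTCA or its reverse TGACCT (the half-site of PPAR and other nuclear receptors, in Plin2).
Plin1: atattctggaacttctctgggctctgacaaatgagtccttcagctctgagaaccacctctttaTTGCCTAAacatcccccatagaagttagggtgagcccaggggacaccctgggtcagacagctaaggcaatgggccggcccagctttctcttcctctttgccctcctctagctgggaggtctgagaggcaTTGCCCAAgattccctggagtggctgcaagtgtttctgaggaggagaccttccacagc
Plin2: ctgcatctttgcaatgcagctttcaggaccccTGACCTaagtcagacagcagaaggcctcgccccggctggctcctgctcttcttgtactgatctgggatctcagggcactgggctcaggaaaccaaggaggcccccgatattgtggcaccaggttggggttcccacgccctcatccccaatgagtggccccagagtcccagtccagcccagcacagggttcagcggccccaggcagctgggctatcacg
Plin4: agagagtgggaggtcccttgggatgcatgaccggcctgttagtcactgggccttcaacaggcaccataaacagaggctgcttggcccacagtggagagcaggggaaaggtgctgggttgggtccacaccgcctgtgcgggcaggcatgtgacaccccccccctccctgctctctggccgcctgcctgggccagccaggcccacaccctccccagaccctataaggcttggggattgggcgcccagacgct
Cidec: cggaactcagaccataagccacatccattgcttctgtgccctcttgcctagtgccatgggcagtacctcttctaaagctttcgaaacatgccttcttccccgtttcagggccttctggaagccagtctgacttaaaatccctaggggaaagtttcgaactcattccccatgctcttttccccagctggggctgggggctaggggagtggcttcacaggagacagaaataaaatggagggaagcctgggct

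All 9 genes were matched to the RefSeq promoters, with 14 start windows between them. C/EBP factors and PPARγ are the transcription factors of adipocyte differentiation. TTGCNNAA was searched on both strands, and it stood in windows of 2 of the 9 genes, namely Plin1 with 2 matches (TTGCCTAA and TTGCCCAA) and the second start of Cidec, against 9.56% of all 32851 promoter windows of 250 bases. AGGTCA on either strand stood in windows of 3 genes (Plin2, Plin5 and Bscl2), against 14% of all. ACGTG, the core of the hypoxia response element, stood only in the second window of Hilpda among the 9 genes, against 16.6% of all. CACGTG, an E-box that contains ACGTG, and the exact letters TATAAA, a form of the TATA box, stood in none, against 6.02% and 12.4% of all. Other forms of the TATA box were not searched, so the promoters may still hold one. The shares of all are of single windows, while some of the 9 genes have several windows and so more chances of a match. These matches are letters in a window and not measured binding.

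The genes lie apart in the genome except for a cluster on chromosome 17 (GRCm38, GENCODE positions). Plin4 (17:56100591-56109803) and Plin5 (17:56111601-56117596) are neighbours on the minus strand with 1797 bases between them, and Plin3 (17:56277476-56292873) lies 160 kb farther on. Plin1 is at 7:79720218-79732903, Plin2 at 4:86648386-86670060, Cidec at 6:113424634-113435760, Hilpda at 6:29272488-29275446, Fitm2 at 2:163466379-163472629 and Bscl2 at 19:8837467-8848683.

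Their levels spanned a wide range. By the mean FPKM of all libraries Cidec ranked 9th of the 12775 tested genes, Plin4 27th, Plin1 52nd and Plin2 84th. Bscl2 ranked 574th, Fitm2 1206th, Plin3 2574th, Hilpda 3216th and Plin5 9192nd. The ranks of Plin2 and Plin4 include the partly matching transcripts described below. Plin2 was the gene whose rank differed most between diets among the 4 highest, at 206th in ND and 38th in HFD.

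The effect of the high-fat diet was addressed by HFD against ND. In HFD, 7 of the 9 genes were called, against 25.6% of all tested genes. Plin2 and Plin3 rose, and Plin4, Plin1, Plin5, Fitm2 and Cidec fell. Called genes made up 14.9% of all tested genes in the higher direction and 10.8% in the lower. The median log2 fold change of the 9 genes was -0.69, and that of all tested genes was -0.02. The libraries of HFD and ND did not overlap for 8 of the 9 genes, as for 59.5% of all tested genes.

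The effect of each supplement was addressed against HFD. In CLE, 6 of the 9 genes were called (16.5% of all tested genes), with Plin4, Plin5, Cidec, Fitm2 and Plin1 higher (6.33% of all) and Plin2 lower (10.1% of all). In LU, 3 were called (12.4% of all), with Plin4 and Plin5 higher (4.81% of all) and Plin2 lower (7.64% of all). By the adjusted p alone, 7 genes passed in LU against HFD, compared with 26.8% of all, because Cidec, Plin1, Fitm2 and Plin3 changed by less than 1.5-fold. The median log2 fold change of the 9 genes was 0.63 in CLE and 0.44 in LU, and that of all tested genes was 0.01 and 0.03. The libraries of 7 genes did not overlap with HFD in CLE and likewise 7 in LU, as for 50.6% and 47.6% of all tested genes.

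**Figure D1:**
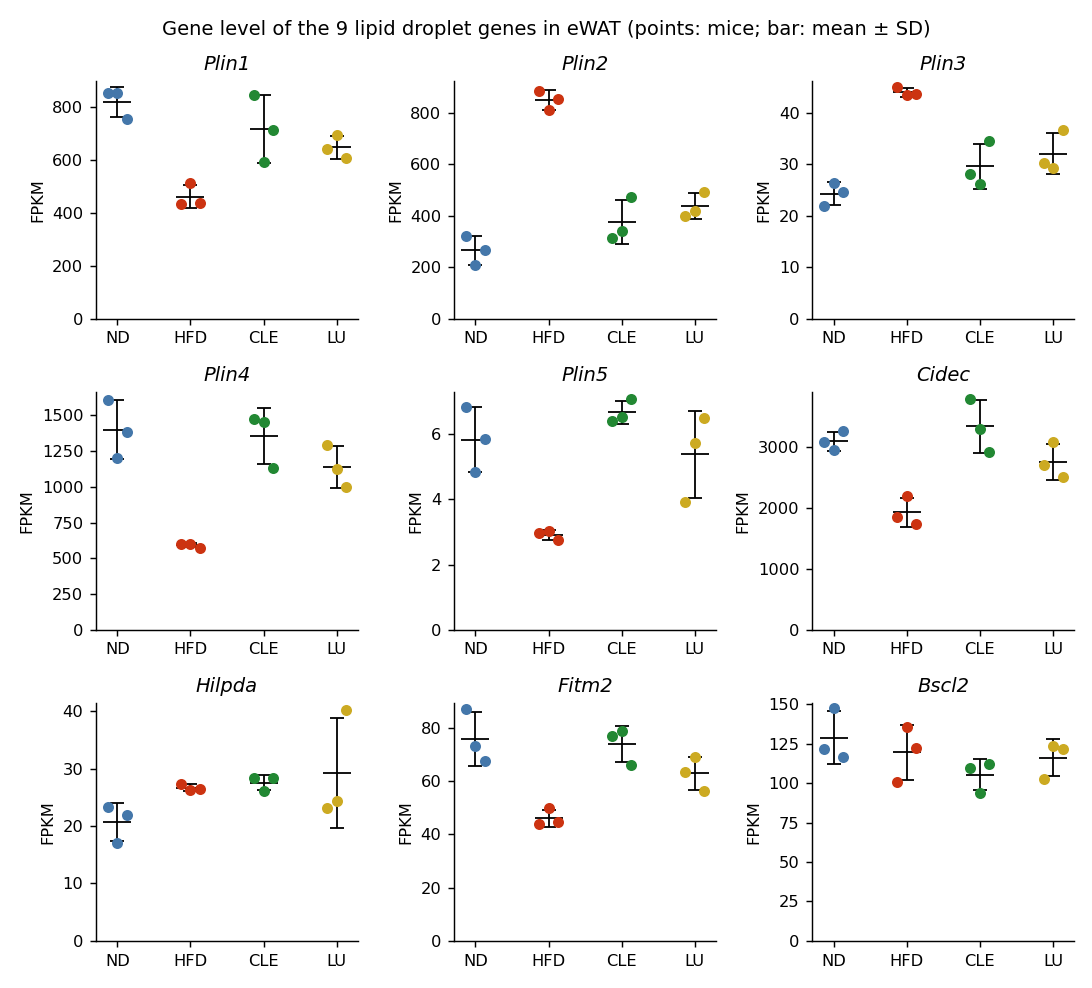
FPKM of the 9 genes (vertical axes, from 0) in the ND, HFD, CLE and LU groups. Points are mice and bars are the mean ± SD of 3 mice. Plin2 and Plin3 are highest in the 3 HFD mice, while Plin1, Plin4, Plin5, Cidec and Fitm2 are lowest there.

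**Figure D2:**
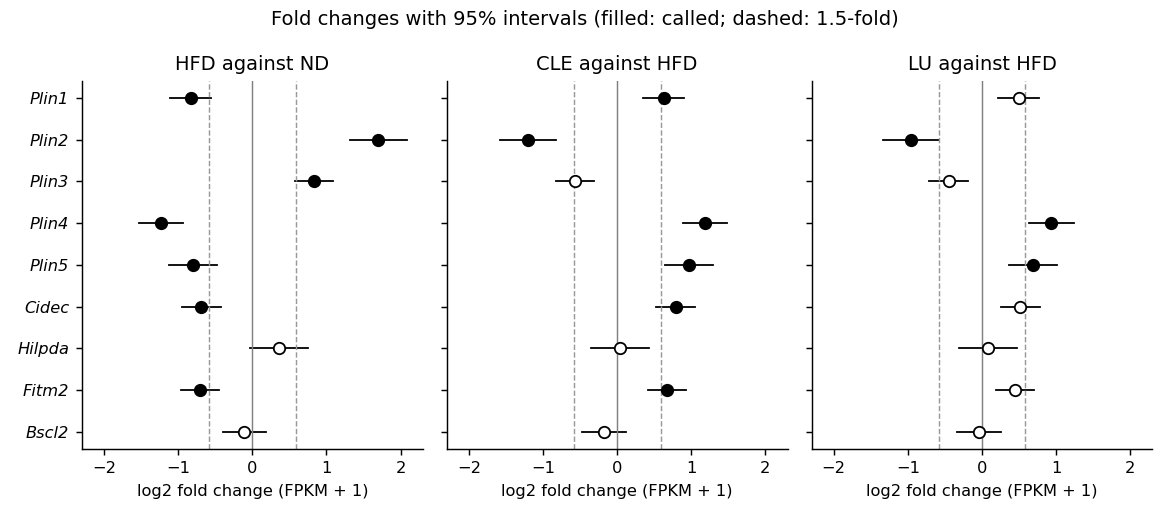
Log2 fold changes of FPKM + 1 (horizontal axes) with 95% intervals of limma for HFD against ND, CLE against HFD and LU against HFD, which share the HFD mice. Filled points are called, dashed lines mark a 1.5-fold change, and the filled points number 7, 6 and 3.

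Plin1 coats the large droplet of adipocytes and, until phosphorylated, keeps the lipase activator Abhd5 from the lipase Pnpla2. Plin1 was at 850, 849.4 and 752.8 FPKM in the ND mice and at 433.5, 509.8 and 435.1 FPKM in the HFD mice. The CLE mice had 844.3, 589.4 and 712.5 FPKM, and the LU mice 640.8, 692.6 and 604.9 FPKM. All HFD mice were below all others, and the CLE mice reached from below the lowest LU mouse into the range of ND. Plin1 was 1.78-fold lower in HFD than in ND (log2 fold change -0.83, SE 0.13, adjusted p = 0.000247). It was 1.56-fold higher in CLE than in HFD (0.63, SE 0.13, adjusted p = 0.00301), a call that was lost without CLE 2 (log2 fold change 0.50) because the change then fell under 1.5-fold. In LU it was 1.41-fold higher than in HFD (0.49, SE 0.13, adjusted p = 0.0147), under the fold threshold.

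Plin2, also called adipophilin, coats the droplets of most cells that are not adipocytes, lipid-laden macrophages included. Plin2 was at 322.1, 207.4 and 264.7 FPKM in ND and at 885.9, 808.3 and 854.5 FPKM in HFD. It was at 312.6, 340.2 and 471.3 FPKM in CLE and at 399.9, 419.9 and 493.1 FPKM in LU. The HFD mice stood far above every other mouse, CLE overlapped with both ND and LU, and LU lay above ND without overlap. Plin2 had the greatest change of the 9 genes in HFD against ND, at 3.21-fold higher (log2 fold change 1.70, SE 0.17, adjusted p = 1.38e-05). Against HFD it fell 2.27-fold in CLE (-1.20, SE 0.17, adjusted p = 0.000374) and 1.94-fold in LU (-0.96, SE 0.17, adjusted p = 0.00241). Assembled transcripts that only partly match Plin2 (class code j) held 37.8% to 54.9% of its FPKM, and some extend past its annotated end. Without them Plin2 was still called in these 3 comparisons, with log2 fold changes of 1.47, -1.14 and -0.88.

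Plin3 is made in nearly all tissues and moves from the cytosol onto small new droplets. Plin3 was at 21.9, 26.4 and 24.6 FPKM in ND and at 45, 43.4 and 43.5 FPKM in HFD. CLE mice had 28, 26.2 and 34.5 FPKM and LU mice 30.2, 29.3 and 36.6 FPKM. Its order was that of Plin2, with the 3 HFD mice above all others. Plin3 rose 1.81-fold in HFD against ND (log2 fold change 0.83, SE 0.12, adjusted p = 0.000152). The differences from HFD in CLE (-0.57, SE 0.12, adjusted p = 0.00369) and LU (-0.45, SE 0.12, adjusted p = 0.0163) stayed under 1.5-fold, and without CLE 11 that of CLE passed it (-0.68).

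Plin4 is found mostly in adipocytes, where it covers nascent droplets. Plin4 was at 1610, 1201 and 1386 FPKM in ND and at 601.8, 598.6 and 574.3 FPKM in HFD. CLE mice had 1476, 1456 and 1129 FPKM and LU mice 1292, 1124 and 996.1 FPKM. The HFD mice lay close together at the bottom, and the other 3 groups overlapped with each other. Plin4 fell 2.36-fold in HFD against ND (log2 fold change -1.23, SE 0.14, adjusted p = 2.58e-05). It rose 2.29-fold in CLE (1.18, SE 0.14, adjusted p = 8.92e-05) and 1.92-fold in LU (0.93, SE 0.14, adjusted p = 0.000727) against HFD. Transcripts of class code j held 36.3% to 57.2% of Plin4. Without them Plin4 was still called in the 3 comparisons, with log2 fold changes of -0.83, 0.95 and 0.73.

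Plin5 ties droplets to mitochondria and is known from heart, muscle, liver and brown fat. It was the lowest of the 9, at 6.83, 4.83 and 5.86 FPKM in ND and at 2.97, 3.02 and 2.74 FPKM in HFD. CLE mice had 6.4, 6.53 and 7.08 FPKM, and LU mice 3.91, 5.74 and 6.51 FPKM. Every HFD mouse was again below every other mouse, and LU was the group with the widest spread. Plin5 was 2.01-fold lower in HFD than in ND (log2 fold change -0.80, SE 0.15, adjusted p = 0.000945) and 2.29-fold higher in CLE than in HFD (0.97, SE 0.15, adjusted p = 0.000506). In LU against HFD it was 1.85-fold higher (0.69, SE 0.15, adjusted p = 0.00602), and without LU 8 the call was lost (0.56). Its values are uncertain, because 4 assembled rows span both Plin4 and Plin5 and held 10.8 to 44.4 FPKM, more than Plin5 itself, and they were counted under Plin4.

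The make-up of the coat genes changed with these levels. Plin2 took 10.5 ± 1.25% (SD, n = 3) of the summed FPKM of the 5 perilipins in ND and 43.6 ± 2.14% in HFD. The share of Plin2 was 15.3 ± 4.28% in CLE and 19.5 ± 3.21% in LU. Plin4 held 55.6 ± 2.69% in ND, 30.4 ± 0.271% in HFD, 54.5 ± 6.17% in CLE and 50.2 ± 4.05% in LU. With all transcripts summed, Plin2 was the first of the 5 perilipins by level in the 3 HFD mice, and Plin4 in the other 9. This order depends on the transcripts of class code j, which make up part of Plin2 and Plin4 and none of Plin1. Without them Plin1 came first in all 3 HFD mice and in 7 of the other 9, and Plin4 in 2. The share of Plin2 without them was 8.88 ± 1.38% in ND, 31.8 ± 1.37% in HFD, 11.6 ± 4.46% in CLE and 14.6 ± 2.32% in LU, so the HFD mice had the largest share either way. The sum of all 5 was 2511 ± 270 FPKM in ND, 1947 ± 32.5 FPKM in HFD, 2480 ± 165 FPKM in CLE and 2259 ± 116 FPKM in LU. The ratio of Plin2 to Plin1 was 0.325 ± 0.0712 in ND, 1.86 ± 0.245 in HFD, 0.536 ± 0.15 in CLE and 0.682 ± 0.116 in LU. It ranged from 1.59 to 2.04 in HFD and was below 1 in all other mice. Without class code j it ranged from 0.782 to 0.938 in HFD and was at most 0.407 in the other mice, so whether it passes 1 depends on these transcripts.

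**Figure D3:**
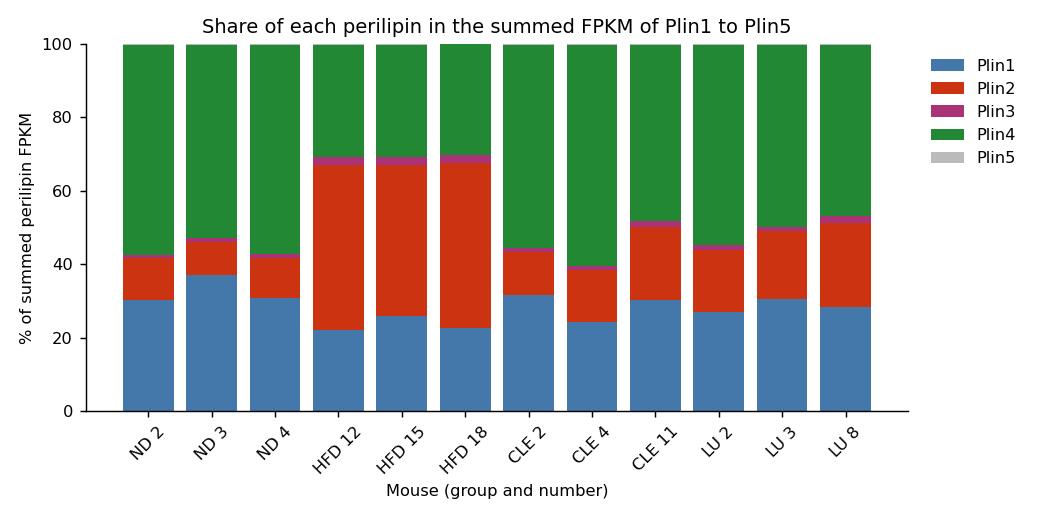
Share of each perilipin in the summed FPKM of Plin1 to Plin5 (vertical axis, % of the sum) in each of the 12 mice. Plin2 makes up 41.2% to 45% in the 3 HFD mice and at most 23.1% in the others, and Plin4 is the main part in the other 9. Without class code j transcripts Plin2 makes up 30.3% to 33.1% in HFD, and Plin4 is first in 2 of the other 9 mice.

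Cidec, also called fat-specific protein 27, stands at the contact of droplets and lets lipid pass to the larger one, which yields the single droplet of white adipocytes. Cidec was at 3066, 2940 and 3252 FPKM in ND and at 1846, 2186 and 1739 FPKM in HFD. CLE mice had 3785, 3288 and 2912 FPKM and LU mice 2692, 3075 and 2495 FPKM. HFD mice were below all other mice, and the CLE group had the highest mean. Cidec was 1.60-fold lower in HFD than in ND (log2 fold change -0.69, SE 0.12, adjusted p = 0.000706). It was 1.73-fold higher in CLE than in HFD (0.79, SE 0.12, adjusted p = 0.00056) and 1.43-fold higher in LU (0.52, SE 0.12, adjusted p = 0.00925), the latter under the fold threshold, which it passed without HFD 15 (0.61) or LU 8 (0.59). Its 3 main annotated transcripts kept steady shares, with ENSMUST00000113089 between 43% and 46.1% of the Cidec total in all libraries.

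Hilpda binds and inhibits the lipase Pnpla2 and is induced by hypoxia and fatty acids. Hilpda was at 23.3, 17 and 21.9 FPKM in ND and at 27.3, 26.2 and 26.5 FPKM in HFD. CLE mice had 28.3, 26 and 28.4 FPKM and LU mice 23.1, 24.3 and 40.2 FPKM. The HFD mice were above the ND mice without overlap, and LU 8 stood far above the other LU mice. Hilpda was not called in HFD against ND (log2 fold change 0.36, 95% interval -0.03 to 0.75, adjusted p = 0.115). It was not called in CLE against HFD (0.04, interval -0.35 to 0.44) or LU against HFD (0.08, interval -0.31 to 0.47) either, and without LU 8 the latter turned to -0.16.

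Fitm2 is an enzyme of the endoplasmic reticulum that is needed for droplets to bud. Fitm2 was at 86.9, 73.1 and 67.4 FPKM in ND and at 43.7, 49.7 and 44.5 FPKM in HFD. CLE mice had 76.9, 78.6 and 66.1 FPKM and LU mice 63.4, 68.8 and 56.2 FPKM. The 3 HFD mice were the lowest of the 12. Fitm2 fell 1.65-fold in HFD against ND (log2 fold change -0.70, SE 0.12, adjusted p = 0.000444) and rose 1.61-fold in CLE against HFD (0.67, SE 0.12, adjusted p = 0.00117). In LU against HFD the difference was 1.37-fold (0.44, SE 0.12, adjusted p = 0.017), under the threshold.

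Bscl2 encodes seipin, which sits where a droplet joins the endoplasmic reticulum and whose loss causes lipodystrophy. Bscl2 was at 121.8, 147.9 and 116.4 FPKM in ND and at 101, 135.6 and 122.1 FPKM in HFD. CLE mice had 109.8, 94 and 112.1 FPKM and LU mice 102.5, 123.6 and 121.8 FPKM. The ND, HFD and LU groups overlapped, and it was not called in HFD against ND (log2 fold change -0.11, 95% interval -0.40 to 0.19, adjusted p = 0.526). It was not called in CLE against HFD (-0.18, interval -0.47 to 0.12) or LU against HFD (-0.04, interval -0.33 to 0.25). Bscl2 was thus the only gene of the 9 whose HFD and ND mice overlapped. Its main transcript, ENSMUST00000086058, held 79.6% to 92.3% of its FPKM, and the retained-intron transcript ENSMUST00000162071 held 4.45% to 8.51% in ND and 2.62% to 2.85% in HFD.

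The supplemented groups were also set beside ND and each other. In CLE against ND, 0 of the 9 genes were called by limma (2.91% of all tested genes), and 3 had an unadjusted p under 0.05. These were Plin2 (log2 fold change 0.50, adjusted p = 0.112), Plin3 (0.27, adjusted p = 0.203) and Hilpda (0.40, adjusted p = 0.202). In LU against ND, Plin2 alone was called (6.59% of all tested genes, 4.97% in the higher direction), at 1.65-fold higher (0.74, SE 0.17, adjusted p = 0.018), and the call was lost without ND 3 (0.58) or LU 8 (0.65). In CLE against LU, 0 of the 9 genes were called (0.00783% of all), and Cidec had the only unadjusted p under 0.05 (log2 fold change 0.27, interval 0.00 to 0.54, adjusted p = 0.891). For Plin2 the difference of CLE from LU was -0.24 (interval -0.62 to 0.14), and for Plin4 it was 0.25 (interval -0.05 to 0.55). The mice did not overlap for 2 of the 9 genes in CLE against ND (24.7% of all tested genes), for 3 in LU against ND (30.1%) and for 0 in CLE against LU (9.03%). The doses of extract and luteolin differ, so these values compare the diets as fed.

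By group means, Plin1, Plin4 and Fitm2 stood in the order HFD, LU, CLE, ND from low to high. Plin5 and Cidec stood in the order HFD, LU, ND, CLE, and Plin2 and Plin3 in the order ND, CLE, LU, HFD. For these 7 genes only the step between HFD and its neighbour LU had an adjusted p under 0.05. The other neighbours in the order overlapped. For Hilpda and Bscl2 no step between neighbours had an adjusted p under 0.05.

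The tissue holds several cell types, and fewer cells of a type and less RNA per cell cannot be told apart in these libraries. The summed FPKM of 10 macrophage markers was 365 to 562 in ND, 3568 to 4043 in HFD, 664 to 1289 in CLE and 1123 to 1485 in LU. All 10 rose in HFD against ND and fell in CLE and in LU against HFD, and none was at 0 in any library. HFD 12, CLE 11 and LU 8 had the highest macrophage sums of their groups and also the highest Plin2 and Plin3 there. HFD 12 and CLE 11 were also the libraries with the highest muscle marker sums. The remaining mice of these groups varied. HFD 15 (3584 FPKM) was above HFD 18 (3568 FPKM) in the macrophage sum, with lower Plin2 and Plin3. LU 2 (1162 FPKM) was above LU 3 (1123 FPKM), with lower Plin2 and higher Plin3. CLE 4 (784 FPKM) was above CLE 2 (664 FPKM), with higher Plin2 and lower Plin3. In ND the mouse with the highest sum, ND 3 (562 FPKM), had the lowest Plin2 (207.4 FPKM) and the highest Plin3 (26.4 FPKM). The summed FPKM of 10 adipocyte markers was 34530 to 36300 in ND, 17940 to 19890 in HFD, 26140 to 29540 in CLE and 25210 to 30440 in LU. Fabp4 was the largest part of this sum, at 19230 to 20210 FPKM in ND and 10460 to 11880 FPKM in HFD. In HFD against ND, 7 of the 10 fell, among them Cfd (log2 fold change -3.52), Adrb3 (-2.73), Pck1 (-2.36) and Retn (-2.36), and 1, Lep, rose (2.35). Lpl (0.04) and Slc2a4 (-0.30) were not called. In CLE against HFD 7 rose and 1 fell, and in LU against HFD 6 rose and 1 fell. The part of these cell types in the results on the perilipins, Cidec and Fitm2 was not tested.

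**Figure D4:**
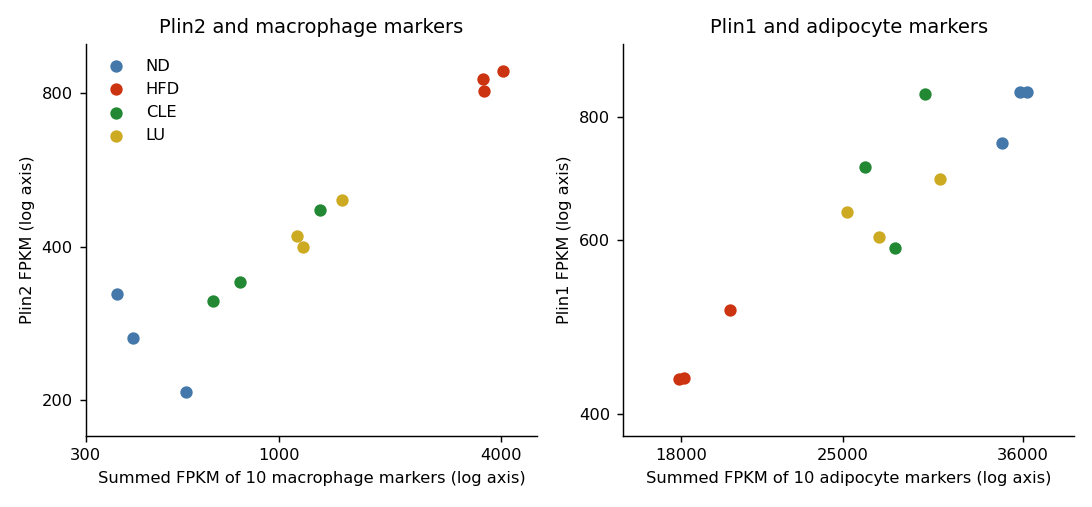
Left, Plin2 FPKM against the summed FPKM of 10 macrophage markers. Right, Plin1 FPKM against the summed FPKM of 10 adipocyte markers, of which Fabp4 is the largest part. There is a point for each of the 12 mice, with log scales on all axes. The HFD mice, with macrophage sums of 3568 to 4043 FPKM and adipocyte sums of 17940 to 19890 FPKM, stand apart from the other groups.

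Other cell types were low. The summed FPKM of 6 brown adipocyte markers was 24.6 to 41.6 over all groups with 0 of the 4 tested called in any of the 3 comparisons. The sums of 6 hepatocyte markers were 15.9 to 34.6 FPKM in ND and 2.63 to 11.5 FPKM in HFD, with Alb (log2 fold change -2.23) and Serpina1a (-1.19) lower in HFD. The sums of 5 mesothelial markers were 9.43 to 53.3 FPKM in ND and 2.29 to 7.01 FPKM in HFD, with 4 of 5 lower in HFD (Upk3b -2.36, Lrrn4 -1.90, Msln -1.58, Krt19 -1.34). In CLE against HFD 1 hepatocyte and 1 mesothelial marker were higher, and in LU against HFD 0 and 1 were. The only skeletal muscle marker that could be tested, Pvalb, was higher in HFD than in ND (log2 fold change 2.73). The other muscle markers found did not follow it in HFD 15 and HFD 18. Pvalb was there at 6.44 and 5.79 FPKM, while Ckm, Myh4, Mylpf, Tnnt3, Actn3 and Myh1 stayed within or below the range of ND. The part of these cell types was not tested.

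Beyond the 9 genes, 25 of a list of 29 symbols of other droplet proteins, lipases and enzymes of lipid synthesis could be tested. In HFD against ND 4 of them rose and 7 fell, and the median log2 fold change was -0.07, beside -0.02 for all tested genes. In CLE against HFD 4 rose and 1 fell, and in LU against HFD 1 rose and 0 fell. The called shares of all tested genes were 25.6%, 16.5% and 12.4% in these comparisons, so the 5 of 25 in CLE were near that share and the 1 of 25 in LU was under it.

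Cidea, a relative of Cidec known from brown fat, was at 5.94, 3.99 and 3.25 FPKM in ND and at 1.66, 0.981 and 0.77 FPKM in HFD. Cidea fell in HFD against ND (log2 fold change -1.33, SE 0.20, adjusted p = 0.000262), and neither CLE (0.16, adjusted p = 0.574) nor LU (0.11, adjusted p = 0.728) was called against HFD. It remained lower than ND in CLE (-1.16, adjusted p = 0.0148) and LU (-1.22, adjusted p = 0.0038). Cidea was thus called lower than ND in all 3 high-fat groups, whereas Cidec was called lower in HFD alone. Whether the 2 genes differed in these changes was not tested.

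Mettl7a1, a droplet-associated methyltransferase family protein, was at 255, 213.3 and 217.6 FPKM in ND and at 103.4, 94.7 and 86 FPKM in HFD. It was at 168.5 to 182 FPKM in CLE and 155.3 to 184.1 FPKM in LU, and was called in all 3 comparisons (log2 fold change -1.26 in HFD against ND, 0.90 in CLE and 0.84 in LU against HFD). Tmem159, also known as promethin or Ldaf1, is the partner of seipin at new droplets. It fell in HFD against ND (-0.97, SE 0.12, adjusted p = 6.05e-05), unlike Bscl2 itself, which was not called. The log2 fold changes of Tmem159 against HFD in CLE (0.58) and LU (0.52) stayed under the threshold of the limma fit. Pnpla2, the first lipase of triacylglycerol breakdown, fell in HFD against ND (-0.92, SE 0.14, adjusted p = 0.000293). Against HFD it rose in CLE (0.88, SE 0.14, adjusted p = 0.00077), and in LU it differed by 0.50 (adjusted p = 0.0239), under 1.5-fold. The other genes called in CLE against HFD, named after their values were seen, were the lipase inhibitor G0s2 (0.83) and the hormone-sensitive lipase Lipe (0.59), which were higher, and Pcyt1a (-0.64), an enzyme of phosphatidylcholine synthesis, which was lower. The 4 genes that rose in HFD against ND, also named after their values were seen, were Pcyt1a (0.89), Snap23 (0.79), Dgat2 (0.73) and Vim (0.71).

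**Figure D5:**
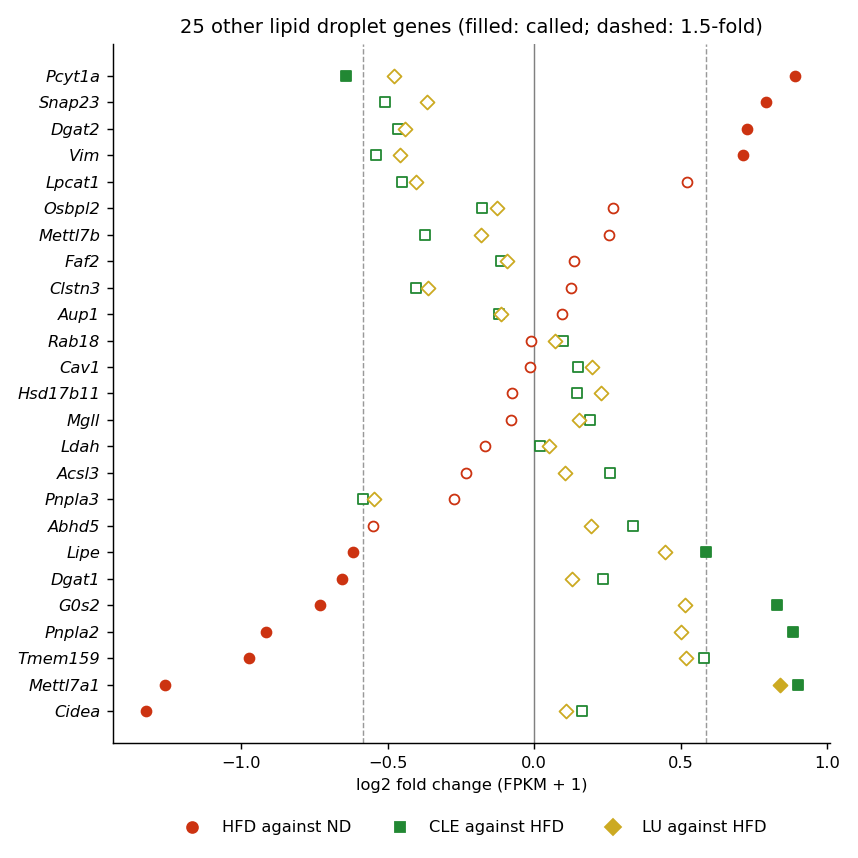
Log2 fold changes of FPKM + 1 (horizontal axis) of the 25 other lipid droplet genes in the 3 comparisons, ordered by HFD against ND. Filled symbols are called, dashed lines mark 1.5-fold, and because the comparisons share the HFD mice their values are not independent. 11 genes are called in HFD against ND, 5 in CLE against HFD and 1 in LU against HFD.

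Of 10 transcription factors and coactivators of adipocyte and droplet genes, Tfeb, a regulator of lysosome genes, was the only one called. Tfeb was at 7.21, 5.28 and 6.38 FPKM in ND and at 13.9, 12.9 and 13.7 FPKM in HFD. It was at 5.53 to 7.49 FPKM in CLE and at 6.18 to 8.83 FPKM in LU, so that the HFD mice stood above all others. Tfeb rose in HFD against ND (log2 fold change 1.00, SE 0.14, adjusted p = 0.000152) and fell in CLE (-1.02) and LU (-0.80) against HFD. Pparg, the master factor of fat cells, differed by -0.44 in HFD against ND, 0.44 in CLE and 0.42 in LU against HFD, all under 1.5-fold (adjusted p = 0.0163, 0.0244 and 0.0387).

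Hilpda is known as a hypoxia-inducible gene, and 10 of 12 other such genes could be tested. In HFD against ND 0 were called higher and 4 lower, beside 14.9% and 10.8% of all tested genes. The 4 were Vegfa (log2 fold change -1.11), Ndrg1 (-0.97), Bnip3 (-0.83) and Egln3 (-0.72). Ero1l was higher by less than 1.5-fold (0.28, adjusted p = 0.0115). Car9 and Ankrd37 did not pass the filter. They were higher in every HFD mouse (0.70 to 1.37 and 0.67 to 0.69 FPKM) than in any ND mouse. Ndrg1 and Vegfa rose in CLE against HFD (1.13 and 0.81) and in LU against HFD (1.09 and 0.65). Over all 10, 5 log2 fold changes were above 0 in HFD against ND and 5 below, and that of Hilpda was 0.36.

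Across the 12 libraries, Pearson's r on log2(FPKM + 1) between Plin1, Plin4, Plin5, Cidec and Fitm2 was 0.764 to 0.951, that of Plin2 with Plin3 was 0.919, and that between both sets was -0.943 to -0.696. These libraries fall into 4 diet groups, so the values describe the group pattern and carry no p. By the same measure, over 6819 genes with a mean of at least 10 FPKM, the genes most like Plin2 were Evl (0.992), Efhd2 (0.992) and Tuba1c (0.99), and those most like Plin3 were Lgals3 (0.989), Paqr7 (0.989) and Tph2 (0.988). Plin1 was most like Acadvl (0.976), Hoxc8 (0.976) and Nfs1 (0.972), and Plin4 most like Cyp27a1 (0.983), Ivns1abp (0.981) and Pck1 (0.979). Cidec was most like Clybl (0.971), Derl1 (0.971) and Lipe (0.965). Fitm2 was most like Gpat4 (0.979), Fam13a (0.976) and Clpb (0.97), and Plin5 most like Tcim (0.943), Nudt18 (0.937) and Sbds (0.933). The likeness was weaker for Hilpda, led by Ddr1 (0.882), Tacc2 (0.871) and Snap47 (0.867), and for Bscl2, led by Emc3 (0.926) and Prelid3b (0.896).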

How the data were processed

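RNA of whole eWAT from 12 mice was analysed, 3 in each of ND, HFD, CLE and LU, grouped by the diets in the labels; the mice were housed singly. The 9 genes, the lists and the tests were chosen with earlier results of these data known. The authors deposited FPKM per transcript and library, estimated with Cufflinks 2.2.1; the submitters' processing notes also name CASAVA 1.8.2, Bowtie2 2.2.3 and TopHat2 2.0.12. The genome build is not given in the sources used here. Of 78786 known transcripts, 77000 were found in GENCODE M21 (GRCm38), of which 87.6% kept both ends at identical positions. Of 15 FPKM columns, 3 matched no sample and were not used, nor were columns of the authors' own calls. The column headed MD4 was taken as ND mouse 4, since its letter R, number and group in the headers match no other mouse.

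Transcripts with an Ensembl id, plain or with class code = or j, were summed per Ensembl gene. The deposited symbols place the transcripts of Plin5 under Plin4 and those of Plin3 under Ticam1, so all genes were matched by transcript id. Counting strand is not stated. An assembled transcript antisense to Plin1 (12.8 to 26.7 FPKM) was kept apart, and reads of both cannot be told apart without strand. FPKM are estimates with no whole-read steps, so the depth is unknown. A mean ± SD therefore covers the spread between libraries, which includes counting error, and that error could not be estimated separately.

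limma 3.58.1 (R 4.3.3) was fitted to log2(FPKM + 1) of the 12775 genes with at least 1 FPKM in at least 3 libraries, all 12 libraries in 1 fit with 8 residual degrees of freedom, and Benjamini-Hochberg adjustment within each comparison. Such fold changes understate those of low genes such as Plin5 and Cidea. The authors tested counts with another tool, which FPKM do not allow. The script was tested on simulated data. Named were all 9 genes, up to 4 called genes of each other list by largest log2 fold change, and the 3 genes most correlated with each member, of which 1 is not reported here. Alternatives were a pseudocount of 0.1, no filter or a mean of 5 FPKM, 3 other scalings, only the compared groups, a trend, array weights, the letter R as covariate or left out, adjusted p alone, the top transcript, no class code j, a replicate block and leaving out each library; the deposited symbols and leaving out both libraries with muscle markers were added after seeing the data. Tables and plots were made with Python 3.11.15, pandas 2.3.3, numpy 2.4.6 and matplotlib 3.10.9.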

Additional observations from a re-analysis of the deposited data

How the results depend on the processing

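All 7 calls of HFD against ND (Plin1, Plin2, Plin3, Plin4, Plin5, Cidec and Fitm2) held in each of 28 alternatives that give a value for each gene. In CLE against HFD the calls of Plin2, Plin4, Plin5, Cidec and Fitm2 held in all 28, and that of Plin1 in 25, with a log2 fold change under the threshold with array weights (0.577), without CLE 2 (0.50) and without HFD 12 and CLE 11 (0.582). In LU against HFD the calls of Plin2 and Plin4 held in all 28 and that of Plin5 in 27. Calls were also gained with 1 library left out: Plin3 in CLE against HFD without CLE 11 (-0.68), and Cidec in LU against HFD without HFD 15 (0.614, with 4 genes then called) and without LU 8 (0.587). Plin3 in CLE against HFD was also called with array weights (-0.614) and without HFD 12 and CLE 11 (-0.663). With the adjusted p alone, LU against HFD called 7 of the 9 genes, where the fold threshold left 3. The single call of LU against ND, Plin2, was lost (0 called) without the libraries with the letter R, with the transcript of the highest mean and without class code j, and leaving out 1 library gave 0 to 1 called. The causes were not tested.

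The labels state no pairing of mice that share a number across groups. For such mice, r of the deviations from the group means was -0.10 to 0.19. With 3 mice a group, these values cannot decide whether the mice were paired. A replicate block on the mouse number (correlation 0.087) changed none of the counts, with 7, 6, 3, 0, 1 and 0 called. With the deposited symbols, where Plin3 and Plin5 have no value of their own, 5, 5, 2, 0, 1 and 0 were called.

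Differences that turned sign were never called. Bscl2 in HFD against ND turned to 0.0126 with the top transcript and 0.0078 without HFD 12 and CLE 11, with a range of -0.203 to 0.0078 when 1 library was left out. Bscl2 in LU against HFD became 0.0042 with the letter R as covariate and 0.0468 without these libraries (range -0.155 to 0.0564 with 1 library left out), and in LU against ND 0.0099 without them. Plin4 in CLE against ND became 0.0643 with quantiles, 0.0129 with array weights, 0.258 with the top transcript, 0.117 without class code j and 0.0773 without HFD 12 and CLE 11 (range -0.153 to 0.0773 with 1 library left out). Fitm2 there became 0.0624 with array weights, 0.0416 with the top transcript or without class code j and 0.0441 without HFD 12 and CLE 11 (range -0.113 to 0.0683), and Plin5 -0.0173 without the letter R libraries. With 1 library left out, Plin5 in LU against ND ranged from -0.239 to 0.0667, Hilpda in LU against HFD from -0.164 to 0.224 and Hilpda in CLE against LU from -0.179 to 0.208.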
